A study of Homo sapiens with 6 samples.

Results

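The fibroblast growth factor (FGF) receptors, their co-receptor and ligands, and the hepatocyte growth factor receptor MET with its ligand were examined in MHCC97H cells, a human hepatocellular carcinoma line. The set held the rows of 10 gene symbols, FGFR1, FGFR2, FGFR3, FGFR4, FGFRL1, KLB, FGF19, FGF2, MET and HGF, chosen by name, and all 10 were present among the 19202 genes counted. RNA sequencing gave 3 libraries of the sorafenib-sensitive control and 3 of cells labelled sorafenib-resistant, with no time, dose or clone stated for either group. Sorafenib is a multikinase inhibitor given for advanced liver cancer. The labels do not tell whether libraries of a group came from separate cultures, and p-values therefore speak only of how these libraries vary, which can be technical variation.

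FGF receptors are receptor tyrosine kinases that pair on binding an FGF held by heparan sulfate, and signal through the docking protein FRS2 into the RAS-ERK cascade. In the liver the main receptor is FGFR4, which with the co-receptor beta-klotho (KLB) binds the gut hormone FGF19 and represses bile acid synthesis. FGF19 and FGFR4 are studied as drivers in a subset of liver cancers. MET is the only known receptor for hepatocyte growth factor (HGF), which stromal cells secrete as an inactive precursor that proteases cleave.

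Totals ran from 1913469 counts (control replicate 1) to 5345272 (control replicate 2). Levels are in CPM, counts divided by a library's scaled total, that total being the tested genes' counts times a trimmed-mean factor, and a log2 fold change (log2FC) above 0 means more in resistant cells. Of the hepatocyte markers, HNF4A and FOXA2 were present at 41.4 ± 4.74 and 48.2 ± 10.3 CPM in resistant cells (SD, n = 3) while APOA2 had 0 counts and TTR 6 and 4 in the groups, and the 16 markers summed to 208 to 209 CPM in control and 140 to 162 CPM in resistant libraries. One library stood apart in another way. Resistant replicate 3 held counts for all 12 endothelial markers, which summed to 165 CPM there against 54.1 and 63.0 CPM in the other resistant libraries and 78.3 to 91.0 CPM in control. The von Willebrand factor gene VWF was at 26.2 CPM in that library and at most 1.76 CPM in the others. The 12 fibroblast markers summed to 66.3 CPM in it and to 19.3 to 44.9 CPM elsewhere. In bulk RNA, fewer cells of a type and less RNA per cell cannot be told apart.

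FGFR4 and FGFR3 fell in resistant cells, and no member was called higher. FGFR4 was 1.66-fold and FGFR3 3.21-fold lower by the group means, and MET, by far the most abundant member, was among the 4 that did not pass the test. Of the 10 members 6 passed the filter on low counts and were tested, with 2 called lower and 4 not called. Over all 10804 tested genes 24.1% were called (11.7% higher and 12.3% lower). KLB, FGFR2, HGF and FGF19 did not pass the filter. In 4 of the 6 tested members, FGFR3, FGFR4, FGF2 and MET, the groups did not overlap, as was so for 38.1% of all tested genes.

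**Figure D1:**
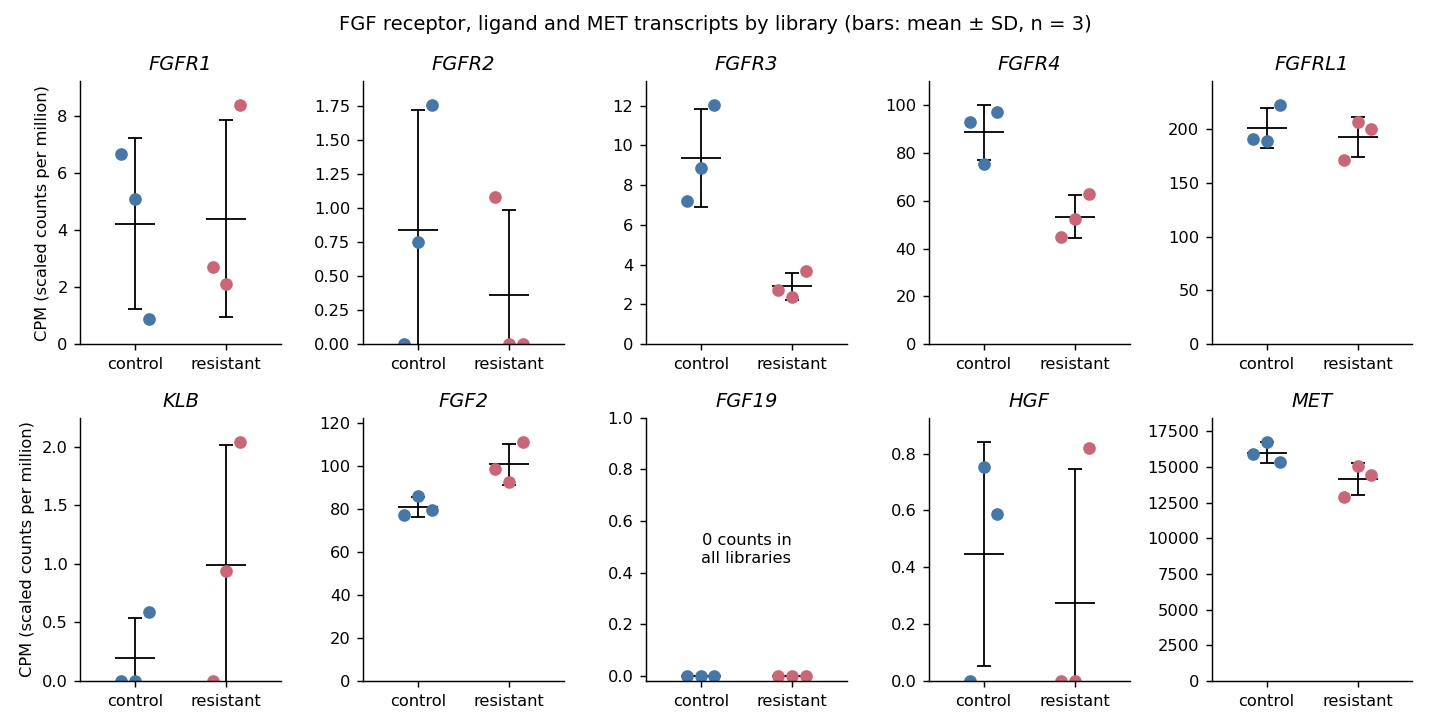
CPM of the 10 members in each library (points, control in blue and resistant in red), with the group mean and SD in black (n = 3 each, lower bars cut at 0). Each panel has its own axis from 0. The resistant points lie below the control points for FGFR3, FGFR4 and MET and above them for FGF2, and the FGF19 panel holds 0 counts in every library.

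FGFR4 and FGFR3, the members that fell, are shown with MET by the 250 bases before their start sites, to set the GC boxes of the receptors that fell beside those of the most abundant member. The sequences are from RefSeq on GRCh38.p14, where 8 of the 10 members matched (not FGFR1 and FGF19), and are printed in the direction of transcription. All 3 genes lie on the plus strand. Capitals mark the GC box GGGCGG, the letters bound by Sp1, on either strand.
FGFR4, chr5:177086665-177086914: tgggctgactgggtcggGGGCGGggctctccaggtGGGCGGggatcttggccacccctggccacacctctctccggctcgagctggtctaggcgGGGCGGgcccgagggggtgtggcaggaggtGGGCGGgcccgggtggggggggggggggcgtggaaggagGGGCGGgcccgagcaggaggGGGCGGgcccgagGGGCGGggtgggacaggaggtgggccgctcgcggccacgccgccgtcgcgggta
FGFR3, chr4:1793043-1793292: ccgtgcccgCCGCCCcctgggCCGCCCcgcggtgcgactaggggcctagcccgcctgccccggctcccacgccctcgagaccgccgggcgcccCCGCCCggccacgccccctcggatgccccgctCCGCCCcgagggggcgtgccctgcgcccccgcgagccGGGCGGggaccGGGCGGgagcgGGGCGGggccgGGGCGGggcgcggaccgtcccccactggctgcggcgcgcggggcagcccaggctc
MET, chr7:116671946-116672195: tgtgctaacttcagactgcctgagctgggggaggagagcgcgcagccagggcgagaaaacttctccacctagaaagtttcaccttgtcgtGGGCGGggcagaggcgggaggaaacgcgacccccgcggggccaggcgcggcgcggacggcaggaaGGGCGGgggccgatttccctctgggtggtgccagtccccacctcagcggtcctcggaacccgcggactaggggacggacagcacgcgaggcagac

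The FGFR3 window held 8 GC boxes and the FGFR4 window 7, counted on both strands. Of 35116 promoter windows of this length, 42.6% held at least 1 such box, 1.12% held 7 or more and 0.584% held 8 or more. MET had 2, FGFRL1 4, FGF2 and FGFR2 3 each, and KLB and HGF 0. Guanine and cytosine made up 79.6% of the FGFR4 window, 86.8% of FGFR3 and 68.4% of MET, against a median of 58.0% over all windows. TATA box (TATAAA), AP-1 (TGANTCA) and HNF4 (CAAAGT) letters were in none of the 8 windows, and were in 10.7%, 6.57% and 10.3% of all windows. These are matches of letters, not measured binding.

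FGFR4 is the receptor through which FGF19 acts on hepatocytes. In GENCODE 29 (GRCh38) the gene spans chromosome 5 from 177086886 to 177098144 on the plus strand. Its level was 93.1, 75.5 and 97.1 CPM in control replicates 1, 2 and 3, and 44.9, 52.4 and 62.8 CPM in resistant replicates 1, 2 and 3. Every resistant library was below every control library, with control replicate 2 the lowest control and resistant replicate 3 the highest resistant one. The means were 88.6 ± 11.5 and 53.4 ± 8.98 CPM (SD, n = 3 each), on 913 and 696 counts. In edgeR's quasi-likelihood test the log2FC was -0.71 (standard error, SE, 0.15; 95% interval -1.01 to -0.42), and the Benjamini-Hochberg adjusted p was 0.000305. The call was kept in all 15 alternatives, with adjusted p from 3.65e-05 to 0.00868.

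FGFR3, a receptor kinase best known from bone growth and bladder cancer, lies on chromosome 4 from 1793293 to 1808872. Control replicates 1, 2 and 3 had 7.20, 8.85 and 12.03 CPM. Resistant replicates 1, 2 and 3 had 2.71, 2.35 and 3.68 CPM. The groups were apart, with control replicate 3 the highest library. The means were 9.36 ± 2.45 and 2.91 ± 0.689 CPM (SD, n = 3 each), resting on 102 and 38 counts. The log2FC was -1.68 (SE 0.47, 95% interval -2.63 to -0.72, edgeR adjusted p = 0.00721). Without control replicate 3 the log2FC was -1.45 and the call was lost (adjusted p = 0.0765 in edgeR), and it was kept in the other 14 alternatives.

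FGFR1, the receptor typical of mesenchymal cells, was low in both groups. It had 13, 27 and 3 counts in control replicates 1, 2 and 3 and 10, 9 and 41 counts in resistant replicates 1, 2 and 3. The groups overlapped, from 0.880 to 6.68 CPM in control and from 2.12 to 8.39 CPM in resistant. The log2FC was 0.14 (SE 0.59, adjusted p = 0.896 in edgeR), and the 95% interval of -1.06 to 1.34 held changes of 2-fold in both directions. Smaller changes were not detectable with these low counts and their spread between libraries. The highest value was in resistant replicate 3, the library with the high endothelial markers. Without it the log2FC was -0.75 (adjusted p = 0.544 in edgeR), and without control replicate 3 it was -0.35 (0.761). The part of the endothelial markers in the FGFR1 level was not tested. On the opposite strand FGFR1 shares 138 bases of exon with LETM2 and 156 with AC087623.1. Whether the counting used strand is not stated.

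FGFR2, the receptor kinase of many epithelia, had 0, 4 and 6 counts in control and 4, 0 and 0 in resistant replicates 1, 2 and 3. FGFRL1, a receptor-like protein that binds FGFs but has no kinase domain, was the most abundant of the FGF receptor family. It had 191, 189 and 222 CPM in control replicates 1, 2 and 3 and 171, 207 and 200 CPM in resistant replicates 1, 2 and 3. The groups overlapped, at means of 201 ± 18.8 and 193 ± 18.7 CPM (SD, n = 3 each). The log2FC was -0.06 (SE 0.10, adjusted p = 0.737 in edgeR), and its 95% interval of -0.27 to 0.15 excluded a change as large as that of FGFR4.

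**Figure D2:**
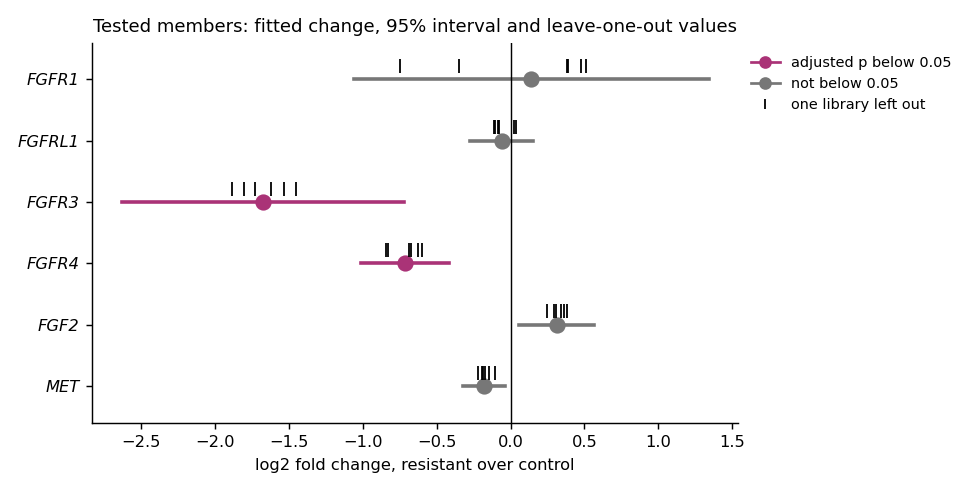
Fitted log2 fold change of the 6 tested members (dots), with its 95% interval (bars) and the values with each library left out (ticks). FGFR3, FGFR4 and MET lie below 0 in every case, and FGF2 lies above 0 in every case. The interval of FGFR1 is the widest and that of MET the narrowest, and those of FGFR1 and FGFRL1 span 0.

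The make-up of the receptor kinases was compared per kilobase of exon, since genes differ in length. FGFR4 gave 90.7, 87.2 and 87.9% of the summed FGFR1 to FGFR4 level in control replicates 1, 2 and 3 and 91.2, 94.5 and 90.5% in resistant replicates 1, 2 and 3. FGFR4 was thus the main FGF receptor kinase transcript in all 6 libraries. Its mean share was 88.6 ± 1.87% in control and 92.1 ± 2.11% in resistant (SD, n = 3 each; exact permutation test, two-sided p = 0.2). The FGFR3 share was 6.99 to 10.8% in control and 4.22 to 5.47% in resistant, without overlap (exact permutation p = 0.1, the smallest that 3 against 3 can give). FGFR1 gave 0.278 to 4.22% and FGFR2 0 to 1.40% of the sum. The 4 kinases together summed to 90.2 to 112 CPM in control and 51.4 to 74.9 CPM in resistant libraries. Of the windows of 50 bases in the transcripts of each receptor, 0 were shared with another, so reads of that length would separate the family.

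**Figure D3:**
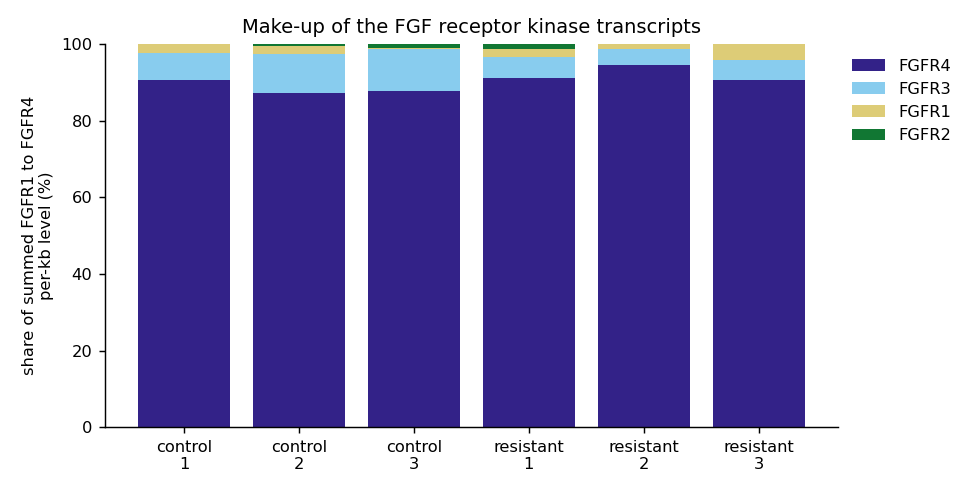
Share of each of FGFR1 to FGFR4 in their summed per-kilobase level (y axis, percent) in the 6 libraries. FGFR4 takes 87.2% or more of each bar, and the FGFR3 part is narrower in the 3 resistant libraries.

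KLB, the co-receptor that FGF19 needs on FGFR4, was close to undetected. It had 0, 0 and 2 counts in control replicates 1, 2 and 3 and 0, 4 and 10 in resistant replicates 1, 2 and 3. The most were in resistant replicate 3, the library with the highest endothelial marker sum. Fitted without a filter its log2FC was 2.19 with an SE of 1.86 (adjusted p = 0.534 in edgeR). Its closest relative alpha-klotho, KL, had 6 counts in all. FGF19 had 0 counts in all 6 libraries, for which the 95% upper limit is 3 counts. That is 0.281 CPM of total counts in control, 0.231 in resistant and 0.127 over all libraries (counting error only). If both mates of a pair were counted, these limits are too low. The cyclin D1 gene CCND1, 0.05 Mb away on chromosome 11, had 2241 and 4727 counts in control and resistant cells. FGF3 had 0 counts and FGF4 had 2 counts.

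FGF2, a broad activator of FGF receptors that leaves cells without a signal peptide, was the only abundant ligand. It had 77.1, 86.1 and 79.5 CPM in control replicates 1, 2 and 3 and 98.5, 92.6 and 111 CPM in resistant replicates 1, 2 and 3. All resistant libraries lay above all control libraries, by 80.9 ± 4.63 against 101 ± 9.65 CPM (SD, n = 3 each). The log2FC of 0.31 (SE 0.13, 95% interval 0.06 to 0.57) missed the threshold (edgeR adjusted p = 0.0657), and did so in each of 15 alternatives (0.0554 to 0.274). FGF2 shares 804 bases of exon with NUDT6 on the opposite strand, and whether the counting used strand is not stated. NUDT6 had 19 and 37 counts in the 2 groups, against 878 and 1303 for FGF2.

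Per kilobase of all exons, FGFR4 lay above FGF2 in the control libraries and below it in the resistant libraries. FGFR4 stood at 19.3, 15.6 and 20.1 and FGF2 at 11.4, 12.7 and 11.7 CPM per kilobase of exon in control replicates 1, 2 and 3. In resistant replicates 1, 2 and 3 FGFR4 stood at 9.30, 10.9 and 13.0 and FGF2 at 14.5, 13.7 and 16.5. The ratio of FGFR4 to FGF2 was 1.23 to 1.71 in control and 0.640 to 0.794 in resistant libraries, without overlap. Scaled by the longest transcript in place of all exons, the ratio was 1.90 to 2.65 in control and 0.990 to 1.23 in resistant. A change of length multiplies the ratio by the same factor in every library, so it is no test of the drop. It does move the point where the ratio crosses 1, and all 3 resistant libraries lay below 1 only with the exon lengths.

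Of the 20 other FGF genes 1 passed the filter. FGF13, which stays inside the cell and binds sodium channels and microtubules, rose from 5.66, 12.1 and 12.9 CPM in control to 37.1, 26.3 and 31.1 CPM in resistant replicates 1, 2 and 3. Every resistant library was above every control library. The log2FC was 1.55 (SE 0.26, adjusted p = 1.3e-05 in edgeR) and the call held in all 15 alternatives. FGF21, a hepatokine that signals through KLB, had 2, 4 and 0 counts in control and 9, 14 and 14 in resistant replicates 1, 2 and 3. Each resistant library lay above each control library for FGF21, but fitted without a filter its log2FC of 2.29 (SE 1.08) did not pass (adjusted p = 0.159 in edgeR). The other 18 had 16 or fewer counts over all libraries.

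HGF had 0, 4 and 2 counts in control and 0, 0 and 4 in resistant replicates 1, 2 and 3, so no level can be given for it. Among the genes that activate or restrain HGF, 2 of 5 tested were lower and 0 higher (40.0% called, against 24.1% of all tested genes). SPINT1, an inhibitor of the HGF-cleaving proteases, stood at 32.5 ± 5.34 CPM against 20.2 ± 3.48 CPM after resistance (log2FC -0.67, SE 0.22, adjusted p = 0.0206 in edgeR). The serine protease gene TMPRSS2 had a log2FC of -2.17 (SE 0.59) on 85 and 20 counts, and its groups overlapped. With halved counts TMPRSS2 did not pass the filter. The call of SPINT1 was lost without control replicate 1 (0.0716), control replicate 3 (0.102) or resistant replicate 2 (0.119), and that of TMPRSS2 without control replicate 2 (0.071) or control replicate 3 (0.0527). PLAU, the urokinase gene, was the most abundant of the list at 79.0 ± 6.45 and 79.8 ± 13.7 CPM and was not called. The liver-made activator HGFAC had 4 counts in control and 0 in resistant.

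MET was among the most abundant transcripts of these cells. It spans chromosome 7 from 116672390 to 116798386 and took 1.62, 1.67 and 1.53% of all counts in control replicates 1, 2 and 3 and 1.27, 1.498 and 1.42% in resistant replicates 1, 2 and 3. By count it was at rank 2 or 3 of 19202 genes in every library, in the company of the mitochondrial MT-ND4 and MT-CO1. Per kilobase of exon it ranked 13 in control and 14 in resistant, and was 108 to 152 times the FGFR4 level in control and 158 to 197 times in resistant libraries.

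The level of MET was 15897, 16764 and 15311 CPM in control replicates 1, 2 and 3. It was 12883, 15076 and 14449 CPM in resistant replicates 1, 2 and 3. The groups did not overlap, but resistant replicate 2 and control replicate 3 lay close. The log2FC was -0.18 (SE 0.07, 95% interval -0.32 to -0.04), and missed the threshold (edgeR adjusted p = 0.0597). MET passed with library totals in place of the trimmed-mean factor (0.0218), in limma-voom (0.0148) and in edgeR without resistant replicate 2 (0.0374), and over all alternatives the adjusted p reached 0.205. The unadjusted p was 0.0153.

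Several genes just before MET on chromosome 7 were also among the most abundant, and 3 of them were called higher. This stretch of 3 Mb to each side was chosen after the values were seen. CAV1 and CAV2, which encode the caveolins of membrane caveolae, ranked 6 and 8 by CPM over all libraries, and TES, a focal adhesion gene, ranked 29. CAV1 rose from 7181 ± 676 to 9979 ± 800 CPM (SD, n = 3 each), or 0.47 on the log2 scale (SE 0.08, edgeR adjusted p = 8.06e-06). CAV2 had a log2FC of 0.26 (adjusted p = 0.0206) and TES of 0.22 (0.034). CAV2 lost the call without control replicate 1 (0.188), resistant replicate 1 (0.0622) or resistant replicate 2 (0.0509), and TES without control replicate 1 (0.121), control replicate 2 (0.0585) or resistant replicate 3 (0.0657) or with a replicate block (0.0705).

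Levels dropped on the far side of MET, and some genes before it were low as well. CAPZA2, the next gene, had 172 ± 6.37 and 179 ± 8.88 CPM, ST7 17.3 ± 2.04 and 16.7 ± 3.22 CPM, and WNT2 had 0 counts. Further before MET, MDFIC fell from 633 ± 21.5 to 418 ± 12.4 CPM (log2FC -0.60, SE 0.09, adjusted p = 1.45e-06 in edgeR). Of the 15 other genes in the window 9 were tested, with 3 called higher, 1 lower and 5 not called. Over all tested genes 24.1% were called. Per kilobase, 4 of the 15 (CAV1, CAV2, TES and MDFIC) lay above the 95th percentile of all genes. Gene copy number was not measured.

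**Figure D4:**
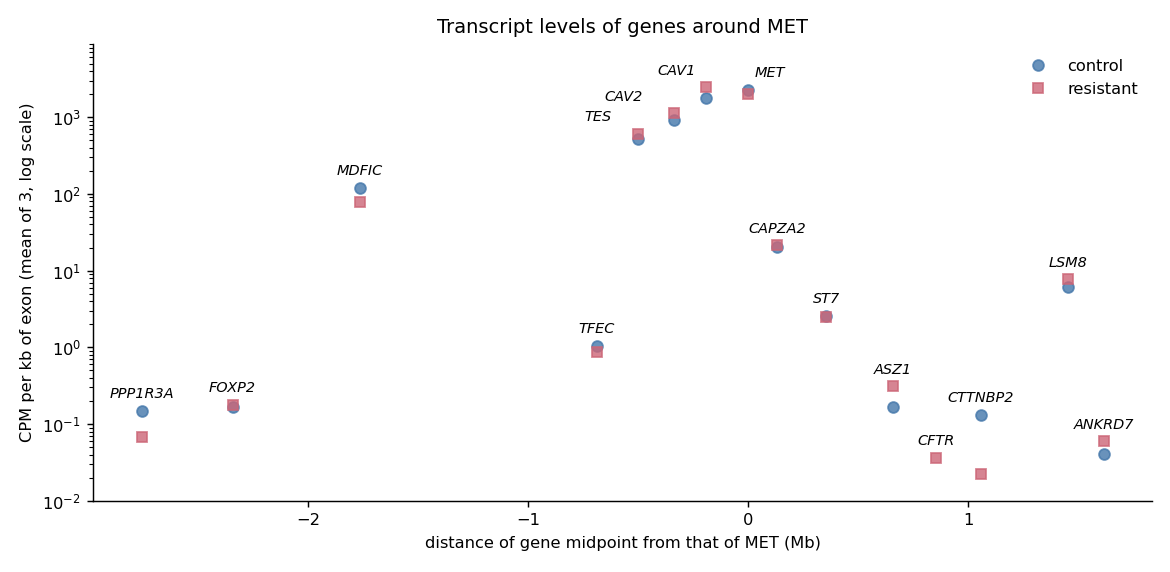
Mean CPM per kilobase of exon (log axis, n = 3) of genes within 3 Mb of MET against the distance of their midpoints from that of MET, in control (circles) and resistant cells (squares). WNT2 and the control value of CFTR, at 0, are not drawn. TES, CAV2, CAV1 and MET stand together at the top, and CAPZA2 and ST7 on the other side of MET lie far lower. TFEC and FOXP2, before MET, are also low.

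Of 20 partners and regulators of MET 17 were tested, with 9 called lower, 1 higher and 7 not called. That is 58.8% called, against 24.1% of all tested genes. The median log2FC was -0.38 against -0.01 over all tested genes. This list, like the others, was chosen with earlier results of these data known. The integrin subunit ITGB4, which can act as a signalling platform for MET, fell from 355 ± 19.2 to 217 ± 5.01 CPM (log2FC -0.71, SE 0.09, adjusted p = 2.27e-07 in edgeR). The semaphorin receptor PLXNB2 fell by 0.46, INPPL1, which encodes the lipid phosphatase SHIP2, by 0.57, and the MET-binding scaffold RANBP9 by 0.85 on the log2 scale. CD44, whose longer forms present HGF, fell by 0.38, and the sheddase gene ADAM17 by 0.46. These 6 calls held in all 15 alternatives. The tyrosine phosphatase gene PTPN1, named after its value was seen as the 1 member called higher, had 127 ± 4.72 and 159 ± 4.17 CPM (log2FC 0.33, SE 0.11). ITGA6, the partner chain of ITGB4, had 598 ± 62.2 and 645 ± 44.5 CPM and was not called. MST1R, the receptor most like MET, had 18 and 24 counts.

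Downstream of both receptors, the adaptor list had 4 called lower and 0 higher of 14 tested (median log2FC -0.02). The share called, 28.6%, was near the 24.1% of all tested genes. STAT3, a transcription factor activated by many receptors, fell from 134 ± 6.22 to 96.3 ± 7.44 CPM (log2FC -0.47, SE 0.12, adjusted p = 0.00212 in edgeR). GAB1, the docking protein of MET and FGF receptors, had 26.9 ± 12.6 and 12.9 ± 4.83 CPM with overlapping groups (log2FC -1.02, SE 0.29, adjusted p = 0.00817). GAB1 lost its call without control replicate 1 (0.148) or resistant replicate 3 (0.0684). The RAS exchange factor SOS1 lost it without control replicate 3 (0.0637), resistant replicate 1 (0.06) or resistant replicate 3 (0.0765), and the adaptor SHC1 without any library but resistant replicate 1 (0.0541 to 0.123) and with no filter (0.0531). GRB2 and PTPN11, the most abundant of the list, were not called.

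ERK feedback and FGF target genes moved both ways, with 3 higher and 4 lower of 18 tested and a median log2FC of 0.00. Calls made up 38.9% of this list, against 24.1% of all tested genes. CCND1 had 148, 228 and 218 CPM in control and 367, 384 and 356 CPM in resistant replicates 1, 2 and 3, a rise in every library (log2FC 0.88, SE 0.11, adjusted p = 8e-08 in edgeR). The immediate-early genes EGR1 and FOS fell by 0.47 and 0.40, and the ERK phosphatase DUSP5 by 0.44 on the log2 scale, all kept in 15 alternatives. DUSP6 and ETV5, ERK-induced genes named for their use as FGF readouts, had a log2FC of -0.05 and -0.15 and were not called (adjusted p = 0.75 and 0.313 in edgeR). Their relative ETV4 had -0.40 (0.0425), a call lost without control replicate 1 (0.188) or 3 (0.254) or resistant replicate 1 (0.0843) or 2 (0.203), and also in DESeq2 (0.0721), in limma-voom (0.0877) and with at least 1 CPM in 3 libraries (0.0611). PHLDA1, the most abundant of the list, had 625 ± 52.4 and 722 ± 19.5 CPM and was not called. The feedback inhibitors SPRY2 (log2FC 0.49) and SPRED3 (1.18) were called higher. SPRY2 lost the call without control replicate 1 (0.15) or 3 (0.0583) or resistant replicate 1 (0.132) or 2 (0.153), in DESeq2 (0.063) and in limma-voom (0.0729), and SPRED3 without control replicate 2 (0.137) or 3 (0.14) or resistant replicate 2 (0.07) or 3 (0.12).

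**Figure D5:**
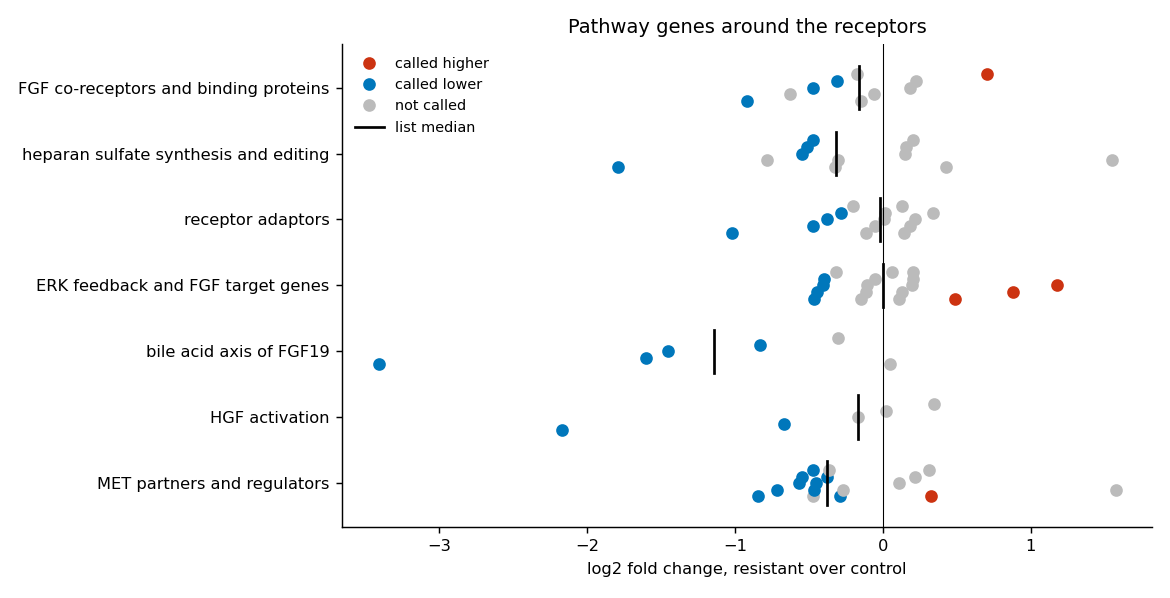
Log2 fold change of the tested genes of 7 lists around the receptors (1 dot per gene, the 10 members left out), coloured by edgeR call, with the list median as a black line. The bile acid list has the lowest median at -1.14, and the ERK list has calls on both sides of 0.

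Of the 13 genes listed for the bile acid axis that FGF19 and FGFR4 govern 6 were tested, with 4 called lower, 0 higher and 2 not called (median log2FC -1.14). That is 66.7% called, against 24.1% of all tested genes. NR5A2, a nuclear receptor that activates bile acid genes, fell from 5.08 ± 2.04 to 0.474 ± 0.0662 CPM (log2FC -3.41, SE 0.74, adjusted p = 0.000604 in edgeR) on 61 and 6 counts. NR5A2 passed the filter on low counts only through its control libraries, and did not pass it with halved counts. A gene that enters in this way can be called only lower, and NR5A2 is part of the 66.7% and of the median. SLC51B, a subunit of the bile acid exporter, fell from 16.2 ± 4.68 to 5.35 ± 0.618 CPM (log2FC -1.61, SE 0.35, adjusted p = 0.00056). CYP27A1, an enzyme of the alternative synthesis route, fell from 77.6 ± 27.7 to 42.5 ± 9.51 CPM (log2FC -0.83, SE 0.18). Its log2FC was -0.54 without control replicate 1. The bile acid receptor gene NR1H4 had a log2FC of -1.45 on 81 and 32 counts, and its call (edgeR adjusted p = 0.0472) was lost when any library but resistant replicate 1 was left out (0.0593 to 0.367), in DESeq2 (0.0683), with no filter (0.0553), with at least 1 CPM in 3 libraries (0.0672) and with a replicate block (0.0654). CYP7A1, the rate-limiting enzyme that FGF19 represses, had 2 and 8 counts. HNF4A, the most abundant of the list after CYP27A1, was not called. Of 11 hepatocyte markers tested 3 were called lower (ALB, APOB and SERPINA1), 0 higher and 8 not called. Their share called, 27.3%, was near the 24.1% of all tested genes. ALB fell from 17.3 ± 3.75 to 5.53 ± 3.50 CPM. The part of the hepatocyte markers in the bile acid result was not tested.

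Heparan sulfate holds FGFs and HGF at the cell surface. Of 10 tested co-receptors and binding proteins 3 were lower and 1 higher (median log2FC -0.16). That is 40.0% called, against 24.1% of all tested genes. The core protein gene SDC3 rose from 52.9 ± 3.31 to 86.7 ± 5.95 CPM (log2FC 0.70, SE 0.14) and FLRT2, an adhesion protein that binds FGF receptors, fell from 38.9 ± 8.64 to 20.7 ± 7.36 CPM (-0.92, SE 0.22). FLRT3 (-0.47) lost its call without control replicate 3 (0.137) or resistant replicate 2 (0.0767), and SDC4 (-0.31) without any library but control replicate 3 (0.0538 to 0.24), with no filter (0.0724), with at least 1 CPM in 3 libraries (0.0617) and with a replicate block (0.0523). GPC1, the most abundant, had 302 ± 25.6 and 291 ± 38.9 CPM, CDH2 had 162 ± 3.42 and 183 ± 23.9 CPM, and neither was called. GPC3, a glypican used as a liver cancer marker, had 2 counts in all.

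Of 12 tested genes that build or edit heparan sulfate 4 were lower and 0 higher (median log2FC -0.32). That is 33.3% called, against 24.1% of all tested genes. The chain polymerase gene EXT1 fell from 104 ± 9.27 to 70.7 ± 5.36 CPM (log2FC -0.55, SE 0.13, adjusted p = 0.0014 in edgeR), while EXT2, its partner, had 118 ± 19.4 and 138 ± 7.44 CPM and was not called. The sulfotransferase gene HS3ST1 had a log2FC of -1.79 on 88 and 30 counts, lost without control replicate 3 (0.0941). The sulfatase gene SULF2 (-0.47) lost its call without control replicate 1 (0.316), resistant replicate 1 (0.0922) or resistant replicate 3 (0.106), and in limma-voom (0.054). GLCE, the epimerase (-0.52), lost it without control replicate 1 (0.104) or 3 (0.125) or resistant replicate 1 (0.0516) or 2 (0.2), in DESeq2 (0.0544) and with no filter (0.0515).

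Among the listed neighbours of FGF19 on chromosome 11, 2 of 12 tested were higher and 3 lower (median log2FC 0.08). Calls made up 41.7% of these, against 24.1% of all tested genes. The list was picked by name and left out some genes of the region. Of all genes within 1.5 Mb of FGF19, 14 were tested, with 2 called higher, 2 lower and 10 not called. DHCR7 lies outside that window. CCND1, described above, had the larger log2FC of the 2 called higher. DHCR7, of cholesterol synthesis, fell by 0.87 and the lysosomal channel gene TPCN2 by 1.12 on the log2 scale, while CTTN had 282 ± 14.6 and 309 ± 17.2 CPM and was not called. PPFIA1 (-0.36) lost its call without control replicate 2 (0.104), resistant replicate 1 (0.0568) or resistant replicate 3 (0.0686), and CPT1A (0.33) without control replicate 2 (0.0695) or 3 (0.199) or resistant replicate 2 (0.182) or 3 (0.0798), in DESeq2 (0.0554) and with library totals only (0.0584).

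The genes whose profiles over the 6 libraries were nearest to those of the fallen receptors were found by the root mean square difference of centred log2 CPM. For FGFR4 they included MTFR1 (0.063) and FTO (0.064). For FGFR3 they were SLC51B (0.090), CMBL (0.16) and TNFAIP3 (0.19). These genes were all called lower in resistant cells, as a profile near that of a called gene must nearly be. SLC51B thus appeared both in the bile acid list and nearest to FGFR3.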

How the data were processed

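RNA of 3 control and 3 sorafenib-resistant MHCC97H libraries was compared. The authors deposited whole-number counts per gene symbol, not normalized, for 19202 genes. Per the submitters' processing notes Trimmomatic, HISAT2 and Bowtie2 were used. Sources used here name no counter, genome build, annotation or strand setting. The table of all libraries equalled the single files, and 27 symbols turned into dates were renamed from their Entrez ID. Of counts from 1 to 20, 81.9 to 88.5% were even in each library, as if both mates of a pair had been counted, so counting errors may be too small.

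After filterByExpr, 10804 genes went into edgeR 4.0.16 with TMM factors (quasi-likelihood test, group as the only term, Benjamini-Hochberg over all tested genes, calls at 0.05) in R 4.3.3. The code was tested on simulated data. The biological coefficient of variation was 13.0%. Other settings tried were DESeq2 1.42.0, limma 3.58.1 with voom, scaling by RLE, by upper quartiles or by totals only, no filter, at least 1 CPM in 3 libraries, a replicate block, halved counts, an adjusted p of 0.01 and each library left out. Exon lengths were from GENCODE 29, where 19151 symbols were found once.

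The genes and lists were chosen with earlier results of these data known. Named from each list were up to 6 called genes by p and the 2 of highest mean CPM, and for called receptors the 3 nearest profiles (1 of them is not reported here). ETV4, ETV5, DUSP6, PTPN1, NUDT6, other low-count genes and the genes 3 Mb around MET and 1.5 Mb around FGF19 were added after values were seen. The markers of cholangiocytes summed to 1088 to 1177 CPM in control and 679 to 738 CPM in resistant libraries, and those of leukocytes to 12.5 to 23.8 CPM. Figures were drawn with matplotlib 3.10.9.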

Additional observations from a re-analysis of the deposited data

How the results depend on the processing

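With each library left out in turn, 1 to 3 of the members were called against 2 with all libraries, the 1 being FGFR4 when control replicate 3 was left out. The call of FGFR4 was kept in all 15 alternatives. Of all tested genes 2601 were called, and 1651 at an adjusted p of 0.01. Of the 42 named genes called, 23 kept their call in all alternatives. Genes that were not called changed sign, with these log2FC: FGFR1 -0.35 without control replicate 3 (-0.75 without resistant replicate 3 to 0.51 over libraries left out), FGFRL1 0.034 without control replicate 3 and 0.026 without resistant replicate 1 (-0.11 to 0.034), GPC1 0.0045 without control replicate 2 (-0.15 to 0.042), HNF4A -0.0090 without resistant replicate 2 (up to 0.15), PLAU -0.0034 with library totals only and -0.042 without control replicate 2 (-0.084 to 0.16), and DUSP6 0.074 without control replicate 3 (from -0.10). The cause was not tested. In the fit with a replicate block, 2518 genes and 2 members were called, and NR1H4 (0.0654), SDC4 (0.0523) and TES (0.0705) lost their calls. Same-numbered libraries did not deviate together (correlations across genes of -0.025, 0.032 and -0.0066). These deviations include counting noise, so the values cannot exclude a shared preparation, and the labels do not state one. The FGFR4 share differed by 3.45 percentage points between groups and by 1.94 and 1.93 with the longest transcript or no length. Low counts limit FGFR1, FGFR2, FGFR3, KLB and HGF.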
